A study of Mus musculus with 14 samples.

Results

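The 7 tumours of the Res 499 subline fell into 4 with a high and 3 with a low level of leukocyte transcripts, and these 2 kinds of tumour were set against each other across genes. Leukocyte content was taken as the mean log2 expression of Ptprc, Cd53, Laptm5, Coro1a and Cd52 in a tumour minus the mean of 4 control tumours on the same array design. A tumour above 0.75 was called rich (replicates 1, 2, 3 and 5) and one at 0.75 or below was called poor (replicates 4, 6 and 7). The series holds 14 tumours in all, of which 7 are Res 499, 5 control and 2 Res 177. The first array design carried 12 of them: 7 Res 499, 4 control and 1 Res 177. The remaining control and Res 177 tumour were on a second design that was normalized separately.

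All tumours came from B16-F10, a pigmented melanoma line of C57BL/6 mice, implanted with Matrigel under the skin of the flank. Per the labels, mice with a tumour on each flank had 1 of them irradiated with 20 Gy on day 8 and were given the CTLA4-blocking antibody 9H10 on days 5, 8 and 11. Res 499 and Res 177 are sublines grown from unirradiated tumours that resisted this therapy or came back after it, and both are labelled resistant. The control cells are labelled sensitive. The labels give neither the age or sex of the mice nor whether the measured tumours had themselves been treated. They also do not say that the tumours of a group grew in separate mice, so the spread between them may be partly technical. Each subline is named once in the labels, and no second line of either kind was analysed here.

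Subcutaneous melanomas hold host cells beside the tumour cells. Macrophages and the monocytes that give rise to them are often the most frequent leukocytes in such tumours; they take up debris through Fc, complement and lectin receptors and display peptides on MHC class II. Fibroblasts lay down the collagen and proteoglycan matrix, and interferon made by lymphocytes induces GTPases, chemokines and the machinery of MHC class I in tumour and host cells alike. Each array here measured the RNA of a whole tumour, so more cells of a type and more RNA per cell cannot be told apart.

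The content of the rich tumours was 1.28, 1.68, 1.71 and 1.39 in replicates 1, 2, 3 and 5. That of the poor tumours was 0.29, 0.20 and -0.39 in replicates 4, 6 and 7. The lowest rich tumour therefore lay 0.53 above the limit and the highest poor tumour 0.46 below it, and no tumour fell between 0.29 and 1.28. Control tumours ran from -0.16 to 0.23, a range that holds 1 of the poor tumours, and the Res 177 tumour was at 1.02. Ptprc, the phosphatase CD45 of all leukocytes, read 7.98, 8.46, 8.26 and 7.33 in the rich tumours and 6.19, 6.26 and 5.52 in the poor ones. The tetraspanin gene Cd53 read 8.98, 9.35, 9.88 and 9.74 against 7.50, 7.91 and 6.71. The smallest gap among the 5 genes was in Coro1a, an actin regulator of leukocytes, at 7.25, 7.45, 7.36 and 7.46 against 6.93, 6.61 and 6.69. The groups were chosen by these values, which are given as a description only.

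**Figure D1:**
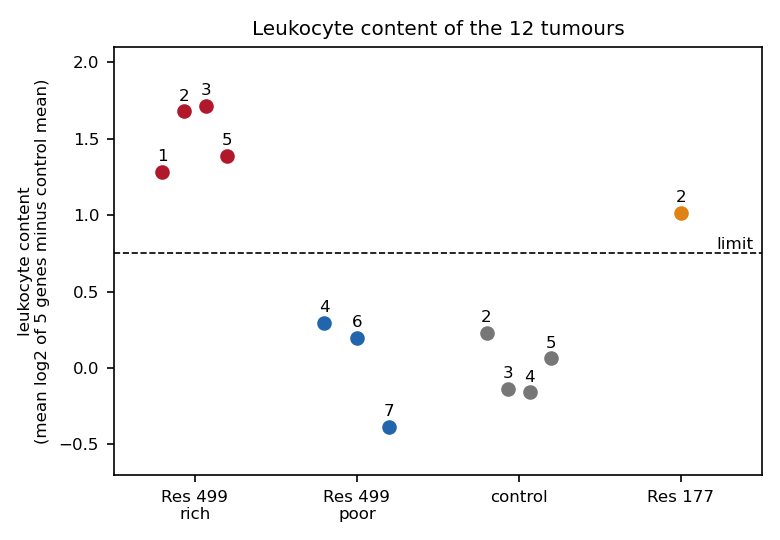
Leukocyte content (log2, mean of 5 genes minus the control mean) of the 12 tumours of the first array design, 1 point per tumour, numbered by replicate, with the limit of 0.75 as a dashed line. The 4 rich Res 499 tumours lie at 1.28 or above, the 3 poor ones at 0.29 or below and the control tumours between -0.16 and 0.23.

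Genes of the tumour cells differed little between the rich and the poor tumours. The pigment cell genes that define this melanoma line read high in all 12 tumours. Pmel, a structural protein of the pigment granule, read 13.45, 13.48, 13.34 and 13.28 in the rich and 13.46, 13.48 and 13.46 in the poor tumours. Dct, an enzyme of melanin synthesis, differed by -0.02 (SE 0.10) and Tyrp1 by 0.01 (SE 0.08). Of 17 melanocyte lineage and pigment genes, 0 were past the fold defined below, and their median difference was -0.13 on the values as deposited and 0.02 without replicate 5. Cell cycle genes had a median difference of -0.02 over 21 members, with 0 past the fold, and Mki67, a marker of dividing cells, differed by 0.09 (SE 0.17).

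Because the tumours were sorted by values of the same arrays, the comparison between them carries no p-value. A gene was called past the fold when the means of rich and poor differed by at least 1 on the log2 scale, which is 2-fold, and when the 4 rich and the 3 poor values did not overlap. Of 16635 genes tested, 209 (1.26%) were past the fold and higher in the rich tumours, and 4 (0.024%) were past it and lower. Over all genes the median difference was -0.01, with the 5th percentile of genes at -0.23 and the 95th at 0.36. Ranges were apart, whatever the size of the difference, with the rich above in 902 genes (5.42%) and below in 592 (3.56%). The larger differences thus lay almost entirely on the higher side.

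**Figure D2:**
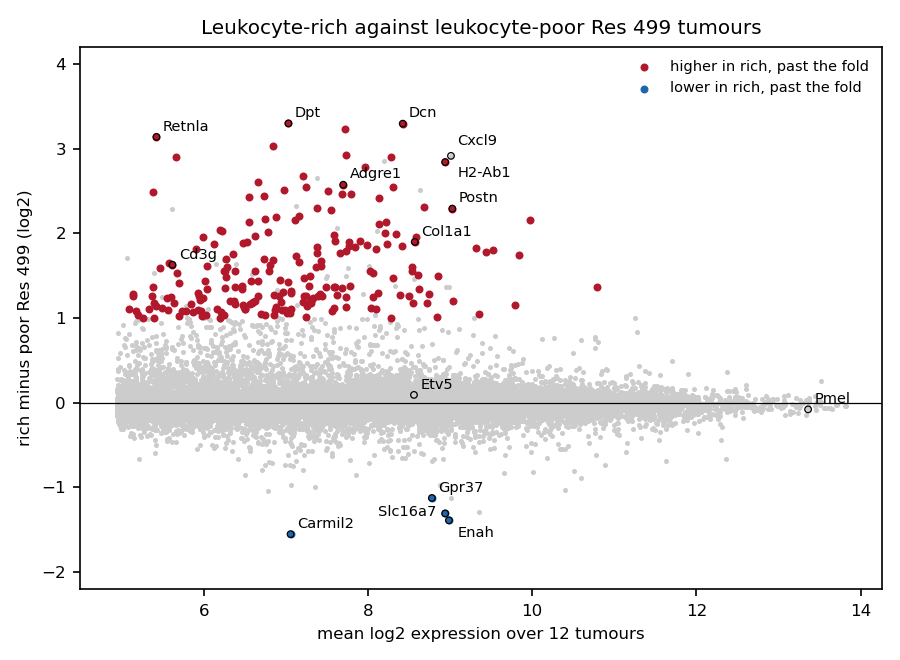
Difference between rich and poor Res 499 tumours (log2, vertical axis) against the mean log2 expression over the 12 tumours (horizontal axis), 1 point per gene. The 209 genes past the fold and higher in the rich tumours are red, the 4 lower ones are blue, and named genes are ringed.

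By the median over members, genes of macrophages and monocytes differed most among the 36 lists. Of 23 members kept by the filter on dim genes, all 23 were higher in the rich tumours, 22 had ranges apart, and 16 were past the fold, with a median difference of 1.55. Over all genes 45.6% were higher, 5.42% had ranges apart with the rich above, and 1.26% were past the fold and higher. Adgre1, the macrophage surface protein F4/80, read 9.18, 9.60, 9.60 and 8.61 in the rich tumours and 7.14, 6.73 and 6.15 in the poor ones, a difference of 2.57 (SE 0.29) or 5.95-fold. The lowest rich value lay above every poor and every control value, the controls running from 6.50 to 7.28. Ly6c2, a surface protein of inflammatory monocytes whose probes may also read its close relative Ly6c1, was 6.23, 7.98, 8.27 and 6.89 against 5.19, 4.09 and 4.05 (difference 2.90, SE 0.50). The chemokine receptor Ccr2, which brings monocytes out of the blood, differed by 1.87 (SE 0.31), and Csf1r, the receptor that sustains macrophages, by 1.60 (SE 0.22). Cathepsin S, encoded by Ctss and used to trim the invariant chain of MHC class II, differed by 2.90 (SE 0.33).

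Receptors and effectors of these cells followed. Among Fc, Toll-like and C-type lectin receptors 11 of 16 were past the fold (median 1.31), and among complement genes and their receptors 7 of 11 (median 1.37). The share past the fold and higher over all genes was 1.26%. Fcgr4, an activating Fc receptor for IgG, read 8.00, 9.28, 9.11 and 8.50 in the rich tumours against 6.66, 6.00 and 5.48 in the poor ones (difference 2.67, SE 0.35). Tlr13, a sensor of bacterial ribosomal RNA, differed by 2.20 (SE 0.22) and Clec12a by 1.97 (SE 0.35). The myeloid lectin genes Clec4a3 and Clec4a1 differed by 3.03 (SE 0.45) and 2.60 (SE 0.32), although they belong to a family of similar copies that can share probes. C1qb, a chain of the first complement component that macrophages secrete, was 10.76, 11.09, 11.66 and 11.05 against 9.76, 8.67 and 8.52. Cybb, the membrane subunit of the phagocyte NADPH oxidase, was 9.08, 10.08, 9.96 and 9.04 against 7.45, 6.75 and 6.07, a 6.89-fold difference. C3ar1, a receptor for a complement fragment, differed by 1.87 (SE 0.22), and Itgam, the integrin chain CD11b, by 1.63 (SE 0.28).

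Smaller programmes of myeloid cells were higher in part. Among myeloid growth factors and transcription factors 1 of 14 was past the fold, Csf1r, with a median of 0.52 over the list. Ranges were apart with the rich above in 7 of the 14, against 5.42% of all genes. Their list mean ran from 0.37 to 0.66 in the rich and from -0.20 to 0.12 in the poor tumours. Of 9 chemokine receptors kept by the filter Ccr2 was past the fold (median 0.26). Among the 9, ranges were apart with the rich above in 3 and below in 1, against 5.42% and 3.56% of all genes. The receptor list mean ran from 0.41 to 0.74 in the rich and from -0.06 to 0.23 in the poor tumours. Lysosome genes, which the tumour cells also express, had a median of 0.14, and 2 of 18 were past the fold, Ctss and the cathepsin gene Ctsh (1.27, SE 0.18). Ranges were apart with the rich above in 5 of the 18. The lysosome list mean ran from 0.25 to 0.51 in the rich and from -0.01 to 0.18 in the poor tumours. Past the fold and higher were 1.26% of all genes. Pld4, an endolysosomal nuclease of myeloid cells, read 8.33, 9.19, 9.05 and 8.03 in the rich tumours against 6.64, 5.98 and 5.70 in the poor ones (2.55, SE 0.32). Itgax, an integrin chain of dendritic cells and macrophages, was 6.46, 7.38, 7.47 and 5.80 against 5.84, 5.53 and 5.64, so that rich replicate 5 fell among the poor tumours.

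Among further genes with large differences, Serpina3n, a secreted protease inhibitor of the acute phase from a cluster of similar copies, read 8.24, 9.22, 9.22 and 10.46 in the rich and 5.63, 6.98 and 5.52 in the poor tumours (3.24, SE 0.51). Its controls spanned 6.14 to 8.49, which takes in rich replicate 1. Ifi205, an interferon-inducible gene of the HIN family whose probes may read its neighbours, was 8.10, 10.25, 9.65 and 9.37 against 6.46, 6.46 and 6.34 (2.92, SE 0.42). Unlike the interferon-stimulated list described below, it kept replicate 4 with the poor tumours.

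Retnla had the largest difference among the genes of the macrophage lists. It encodes a secreted resistin-like protein that macrophages make in response to interleukin 4. It read 7.62, 7.11, 8.19 and 7.06 in the rich tumours and 4.26, 4.25 and 4.55 in the poor ones, a difference of 3.14 (SE 0.26) or 8.81-fold. The poor values are near those of the dim gene S100a8, which averaged 4.03 over the 12 tumours. The size of the fold is therefore uncertain. The poor tumours lay within the control range of 4.17 to 4.80, and so did the Res 177 tumour at 4.31, although its leukocyte content was 1.02. Other higher genes shared this low Res 177 value. Plac8 averaged 7.12 and Ms4a8a 6.93 in the rich tumours, against 5.43 and 5.64 in Res 177. Their highest control values were 5.54 and 5.71. Of the 11 genes of alternatively activated macrophages, Retnla among them, 4 were past the fold and the median was 0.87. That median was 1.47 with the dimmest 50% of genes left out and 0.53 without replicates 4 and 5, an alternative added after seeing the data. Mrc1, the mannose receptor, differed by 2.01 (SE 0.33), Folr2 by 1.79 (SE 0.23) and Lyve1, a hyaluronan receptor, by 1.47 (SE 0.40). Of the 8 genes of classically activated macrophages kept by the filter, 0 were past the fold (median 0.45), but 7 were higher in the rich tumours. Ranges were apart with the rich above in 3 of these 8 and in 6 of the 11, against 5.42% of all genes. The classical list mean ran from 0.54 to 0.86 in the rich and from -0.28 to 0.20 in the poor tumours.

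Promoters of the higher genes were searched for the letters of the PU.1 site (GAGGAAGT), bound by the transcription factor that directs myeloid genes, of the interferon-stimulated response element (GAAA, any 2 bases, GAAA) and of the M-box (TCATGTG), bound by the melanocyte factor MITF. Both strands were read over 250 bases before to 50 after each start in the RefSeq table of build GRCm38.p6, which held 171 promoters for 151 of the 209 genes. The PU.1 letters occurred in 17 of these promoters (9.94%), against 3.20% of all 32851 promoters in the table and 2.94% of those of the tested genes. The response element occurred in 20 (11.7%), against 3.44% and 2.94%, and the M-box in 10 (5.85%), against 3.77% and 2.40%. In the macrophage and monocyte list 4 of 19 promoters held the PU.1 letters, 3 the M-box and 2 the response element, and in the fibroblast list 0 of 9 promoters held any of the 3 motifs. The response element and the PU.1 letters do not overlap in the stretches shown here. They are those of Fcgr4, with both motifs, Cybb, with the response element 3 times, and Ly6c2, with the PU.1 letters 2 times, each as the 180 bases that end at the start site, read 5′ to 3′ along the gene's strand with the matched letters in capitals. Fcgr4 lies at chr1:171018746-171018925 on the plus strand, Cybb at chrX:9469325-9469504 on the minus strand and Ly6c2, the first of 2 promoters in the table, at chr15:75111938-75112117 on the minus strand.
Fcgr4: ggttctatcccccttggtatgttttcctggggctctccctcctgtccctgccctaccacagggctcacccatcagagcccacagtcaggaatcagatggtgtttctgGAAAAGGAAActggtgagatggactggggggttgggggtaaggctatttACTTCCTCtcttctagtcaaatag
Cybb: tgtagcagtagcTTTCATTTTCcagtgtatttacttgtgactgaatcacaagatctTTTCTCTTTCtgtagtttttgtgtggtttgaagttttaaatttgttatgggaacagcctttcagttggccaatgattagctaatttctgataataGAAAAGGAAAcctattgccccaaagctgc
Ly6c2: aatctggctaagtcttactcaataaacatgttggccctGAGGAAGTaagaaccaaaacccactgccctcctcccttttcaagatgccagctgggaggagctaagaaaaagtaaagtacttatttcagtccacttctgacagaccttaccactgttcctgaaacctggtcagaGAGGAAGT
A match describes the letters of the window and was not measured as binding in these tumours.

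MHC class II genes were higher with the macrophage genes but varied more between tumours. Of 9 members, 3 were past the fold and 6 had ranges apart, with a median of 0.82, or 1.73 with the dimmest 50% of genes left out. Over all genes 1.26% were past the fold and higher, and 5.42% had ranges apart with the rich above. The beta chain gene H2-Ab1 read 9.93, 11.40, 10.91 and 10.07 in the rich tumours and 8.80, 7.45 and 6.96 in the poor ones (difference 2.84, SE 0.48). H2-Aa differed by 2.54 (SE 0.51) and H2-Eb1 by 1.96 (SE 0.40). Poor replicate 4 was the highest of the poor tumours in all 3 genes, at 8.32 for H2-Aa and 8.24 for H2-Eb1. Its H2-Ab1 value of 8.80 was next to that of the highest control, 8.79.

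Chemokines split in a like way, with 8 of 23 past the fold, against 1.26% of all genes. Their median was 0.86, or 1.34 with the dimmest 50% of genes left out. Ccl8, a ligand that attracts monocytes, read 8.28, 9.00, 9.95 and 8.06 in the rich tumours against 6.61, 6.74 and 6.31 in the poor ones (difference 2.27, SE 0.40). Ccl6 differed by 1.91 (SE 0.50), Cxcl16 by 1.84 (SE 0.25) and Ccl9 by 1.61 (SE 0.39). In Ccl6 and Ccl9 replicate 5 was the highest of all 7 tumours, at 10.09 and 10.55. Cxcl10, which draws activated T cells, did not divide the tumours: it read 10.05, 9.16, 9.76 and 9.78 in the rich and 9.89, 9.46 and 8.93 in the poor ones.

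Lymphocyte genes differed less. Of 12 T cell genes all 12 were higher and 6 had ranges apart with the rich above, against 5.42% of all genes. Their list mean ran from 0.16 to 0.58 in the rich and from -0.12 to -0.003 in the poor tumours. Of the 12, 1 was past the fold, against 1.26% of all genes, and the median was 0.37. That gene was Cd3g, a chain of the T cell receptor complex, at 5.87, 7.38, 7.06 and 5.90 in the rich against 5.00, 4.85 and 4.91 in the poor tumours (difference 1.63, SE 0.36). Its partner Cd3e read 6.38, 6.85, 6.21 and 5.96 against 5.91, 5.57 and 5.63 (difference 0.64, SE 0.20), and rich replicate 5 was the one close to poor replicate 4. Cd8a, the coreceptor of cytotoxic T cells, overlapped between the groups (difference 0.42, SE 0.17), as did the protease gene Gzmb (0.61, SE 0.30). Among 9 NK and cytotoxic genes Nkg7 was past the fold (1.04, SE 0.30), 4 had ranges apart with the rich above, and the list median was 0.24. Their list mean ran from 0.18 to 0.56 in the rich and from -0.08 to 0.08 in the poor tumours. Replicates 2 and 3 were the highest of the 7 tumours for Cd3g, Gzmb and Nkg7. Ncr1, an activating receptor of NK cells, differed by 0.33 (SE 0.12).

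Checkpoint genes had few members past the fold. Of 16 checkpoint ligands Vsir, which encodes VISTA and is carried by myeloid cells, was past the fold at 7.63, 8.43, 8.30 and 8.05 in the rich against 7.03, 6.92 and 6.57 in the poor tumours (1.26, SE 0.20), and the list median was 0.15. Of 9 T cell checkpoint receptors Entpd1, the ectonucleotidase CD39 that macrophages also carry, was past the fold (1.44, SE 0.31; median 0.22). Ranges were apart with the rich above in 5 of the 16 ligands and 5 of the 9 receptors, against 5.42% of all genes. They were apart with the rich below in 2 of the ligands and 0 of the receptors, against 3.56%. The receptor list mean ran from 0.33 to 0.55 in the rich and from -0.03 to 0.06 in the poor tumours. The dim receptor genes Ctla4, Tigit, Cd244a and Cd160 did not pass the filter.

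Other leukocyte lists had small medians. Of 4 B and plasma cell genes kept by the filter 0 were past the fold (median -0.08); Ms4a1, Cr2, Fcer2a and Jchain were among the dimmest 25% of genes. Neutrophil genes had a median of 0.13 (0.0004 without replicate 5) with 0 of 8 past the fold, and S100a8 was dim in all 12 tumours, from 3.67 to 5.27. Dendritic cell genes had a median of 0.19 with 9 of 11 higher (45.6% of all genes were) and 0 past the fold, and their list mean ran from 0.38 to 0.65 in the rich and from 0.04 to 0.32 in the poor tumours. In the mast cell, basophil and eosinophil list the median was -0.06 over 5 genes, and the list mean ran from 0.12 to 0.56 in the rich and from -0.04 to 0.04 in the poor tumours. There Cpa3, a protease of mast cells, was past it at 1.18 (SE 0.41), and it read 7.26 in replicate 3 where the other rich tumours read 5.44, 5.79 and 5.41. Without replicate 3 its difference was 0.75.

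**Figure D3:**
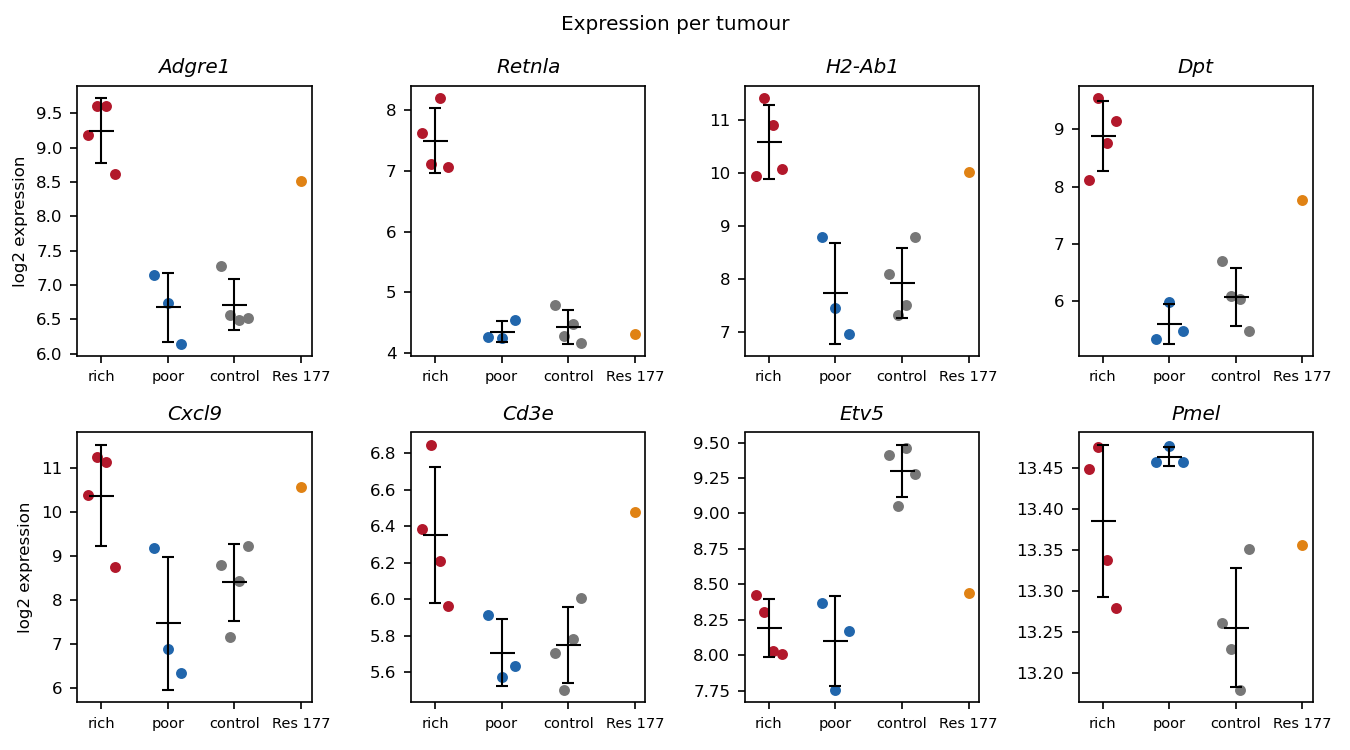
Log2 expression of 8 genes in each tumour of the first array design, 1 point per tumour, with bars for the mean and SD of the 4 rich and 3 poor Res 499 and the 4 control tumours and a single Res 177 tumour. Adgre1, Retnla, H2-Ab1 and Dpt separate rich from poor, Cxcl9 overlaps through replicates 4 and 5, and Etv5 differs from the controls in rich and poor alike.

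Genes of the fibroblast matrix were also higher in the rich tumours. The largest difference past the fold was that of Dpt, which encodes dermatopontin, a protein of the dermal matrix, at 8.11, 9.55, 8.75 and 9.15 in the rich tumours against 5.33, 5.98 and 5.46 in the poor ones (3.30, SE 0.31, or 9.83-fold). Dcn, the collagen-binding proteoglycan decorin, followed at 9.05, 10.60, 10.48 and 9.98 against 6.01, 7.36 and 6.84 (3.29, SE 0.41). Of 15 fibroblast and matrix genes, all 15 were higher, 11 had ranges apart and 8 were past the fold, with a median of 1.03. The shares over all genes were 45.6% higher, 5.42% apart with the rich above and 1.26% past the fold and higher. Postn, the matrix protein periostin, differed by 2.29 (SE 0.14), with the rich tumours between 9.79 and 10.33 and the poor between 7.61 and 7.94. Col1a1 and Col3a1, the main fibrillar collagens of skin, differed by 1.90 (SE 0.24) and 1.86 (SE 0.13).

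The matrix genes did not sit where the leukocyte genes sat against the controls. The fibroblast list mean, relative to the control mean, was 0.81, 0.78, 0.93 and 0.50 in the rich tumours and -0.52, -0.25 and -0.63 in the poor ones, while the controls ran from -0.21 to 0.32. All 3 poor tumours thus lay below every control. Postn ran from 8.22 to 9.99 in the controls, which covers 2 of the 4 rich tumours and lies above every poor one. For the macrophage list the poor tumours, at 0.26, -0.04 and -0.32, lay within the control range of -0.18 to 0.34 in replicates 4 and 6 and below it in replicate 7.

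Other host cell types moved with the groups to a smaller extent, and their part in the results was not tested. Endothelial genes had 13 of 13 members higher and 0 past the fold (median 0.36). Over all genes 45.6% were higher and 1.26% were past the fold and higher. The endothelial list mean ran from -0.17 to 0.48 in the rich and from -0.20 to -0.03 in the poor tumours. Replicate 5 was the rich tumour inside the poor range. Pecam1, an adhesion molecule of endothelium and of some leukocytes, differed by 0.60 (SE 0.17). Without replicate 5 the endothelial median was 0.61. Adipocyte genes had 8 of 8 higher and 1 past the fold, Fabp4 (1.74, SE 0.44), a fatty acid carrier that macrophages also make. The adipocyte list mean was 1.68 in replicate 5 and 0.06 to 0.15 in the other rich tumours, and without replicate 5 the list median was 0.09 in place of 0.56. Keratinocyte genes had 0 of 7 members higher and 0 past the fold, with list means from -0.11 to 0.01 in the rich and 0.02 to 0.12 in the poor tumours. Red cell and platelet (median -0.04, 5 genes), pericyte and smooth muscle (0.07, 9 genes) and skeletal muscle genes (0.09, 8 genes) overlapped between the groups in their list means, with 0 members past the fold. No probe set is at 0 on this scale, so absence of a marker can be read only as a dim value.

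**Figure D4:**
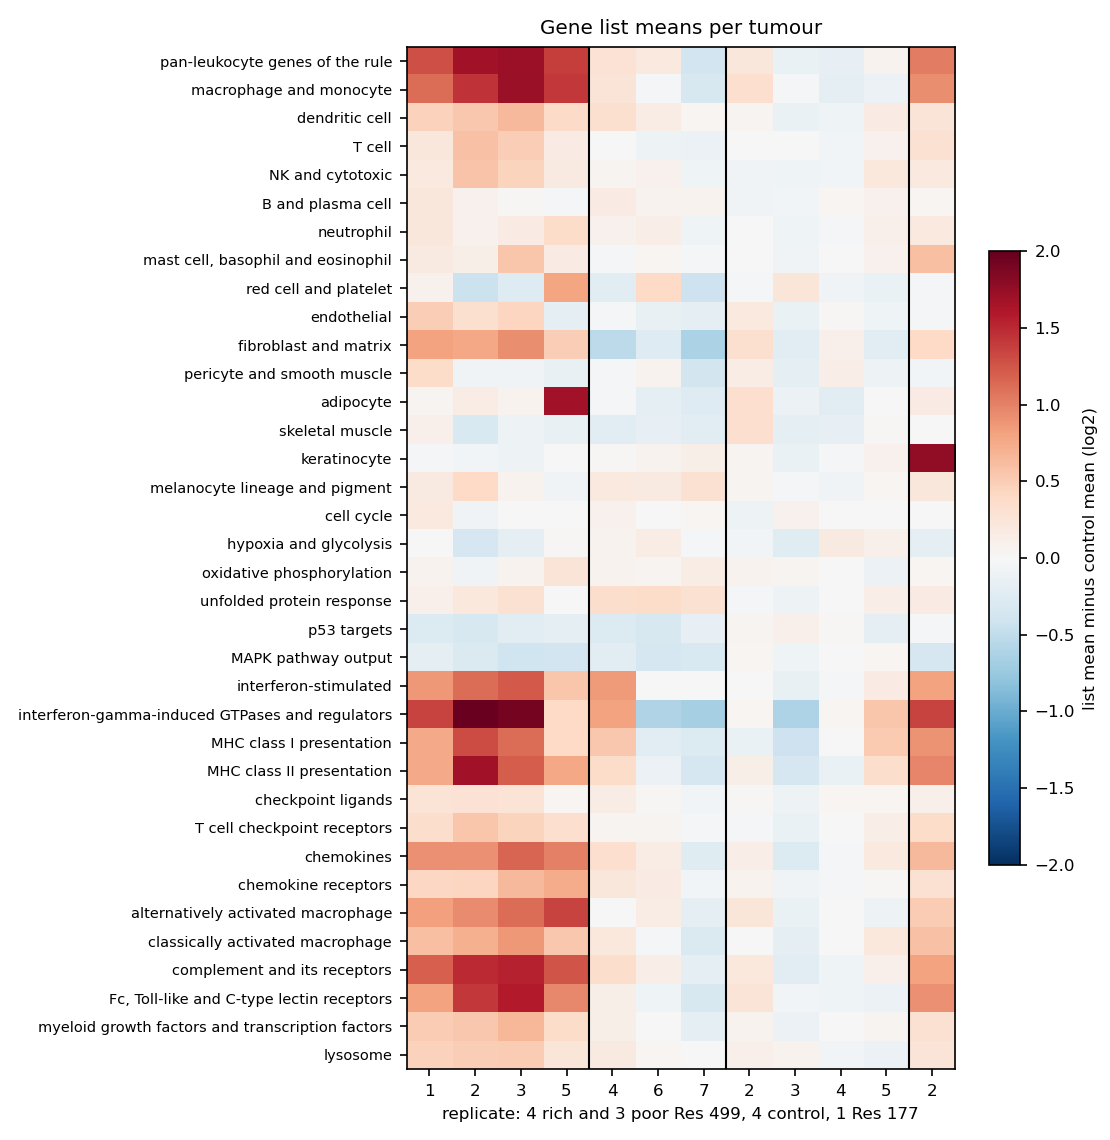
Mean of each gene list in each tumour of the first array design relative to the control mean (log2, colour), with columns for the 4 rich Res 499, 3 poor Res 499, 4 control and 1 Res 177 tumours, numbered by replicate. The leukocyte, macrophage, complement and matrix lists are high in all 4 rich tumours, while the interferon lists are high in poor replicate 4 and lower in rich replicate 5.

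Interferon-induced genes were mostly higher in the rich tumours, but replicates 4 and 5 were out of order in them. Of 28 interferon-stimulated genes, 26 were higher in the rich tumours, against 45.6% of all genes, with a median of 0.62. Past the fold were 0 of the 28, against 1.28% of all genes. Ranges were apart with the rich above in 1 of the 28, against 5.42% of all genes, and 27 overlapped. The list mean was 0.86, 1.12, 1.22 and 0.56 in rich replicates 1, 2, 3 and 5, and 0.86, -0.01 and 0.01 in poor replicates 4, 6 and 7. Replicate 4, a poor tumour, equalled or exceeded replicate 5, a rich one, in 25 of 28 of these genes, in 0 of 23 macrophage genes and in 50.2% of all genes. Ifit1, an antiviral RNA-binding protein, read 7.68, 8.36, 8.65 and 7.56 in the rich and 8.03, 6.57 and 6.62 in the poor tumours. Isg15, a ubiquitin-like modifier, read 6.53, 6.53, 7.04 and 6.33 against 6.42, 5.87 and 5.86. Of the promoters of this list 11 of 24 (45.8%) held the interferon-stimulated response element against 3.44% of all promoters. That of Isg15 is shown as the 180 bases before its start, at chr4:156200819-156200998 on the minus strand of GRCm38.p6 from RefSeq, with 3 overlapping matches in capitals.
Isg15: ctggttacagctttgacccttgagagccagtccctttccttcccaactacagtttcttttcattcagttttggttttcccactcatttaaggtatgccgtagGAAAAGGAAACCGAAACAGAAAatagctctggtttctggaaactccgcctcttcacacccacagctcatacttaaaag

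Genes induced by interferon gamma also had a higher list mean in poor replicate 4 (0.81) than in rich replicate 5 (0.40). Of 11 GTPases and regulators 9 differed by at least 1, with a median of 1.38, and 0 were past the fold, all 11 having overlapping ranges. Cxcl9, a chemokine induced by interferon gamma, read 10.39, 11.26, 11.14 and 8.75 in the rich tumours and 9.20, 6.88 and 6.33 in the poor ones. Its difference of 2.91 (SE 0.77) was among the largest of all genes, but replicate 4 lay above replicate 5. Their list mean was 1.35, 1.97, 1.91 and 0.40 in the rich tumours against 0.81, -0.60 and -0.66 in the poor ones. With replicates 4 and 5 both left out, an alternative added after seeing the data, the median difference was 2.20 for this list and 1.01 for the interferon-stimulated list. Replicate 4 was the highest poor and replicate 5 the lowest rich tumour in both list means, so the wider difference is built in.

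MHC class I presentation took a middle place, with 2 of 15 genes past the fold, against 1.26% of all genes, and a median of 0.99. Both are subunits of the immunoproteasome, which cuts peptides for MHC class I. Psmb8 read 8.91, 9.31, 9.43 and 8.93 in the rich tumours against 8.51, 7.45 and 7.04 in the poor ones (1.48, SE 0.31), and Psmb10 differed by 1.15 (SE 0.32). Replicate 4 equalled or exceeded replicate 5 in 11 of the 15 genes, against 50.2% of all genes. The shared light chain gene B2m differed by 0.25 (SE 0.11) with overlapping ranges, as did Cd274, the checkpoint ligand PD-L1, by 0.39 (SE 0.21). Over all genes 247 (1.48%) were higher by at least 1 when overlap was allowed and 8 (0.0481%) were lower, against 209 and 4 past the fold. In 28 of the 38 higher genes this adds, replicate 4 equalled or exceeded replicate 5, against 50.2% of all genes. These 38 genes were picked for ranges that overlap, so a poor value at or above a rich one is built in.

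Few genes were lower in the rich tumours. Carmil2, a regulator of actin capping, read 8.07, 6.16, 7.66 and 6.62 in the rich tumours and 8.15, 9.06 and 8.83 in the poor ones (-1.55, SE 0.44). The margin was small, since rich replicate 1 and poor replicate 4 were 8.07 and 8.15, and controls lay at 5.90 to 6.20, below all 3 poor tumours. Enah, an actin filament regulator, read 8.92, 8.34, 7.81 and 9.12 against 9.41, 10.39 and 10.01 (-1.39, SE 0.33), within a wide control range of 6.24 to 10.05 except for 1 poor tumour. Slc16a7, a transporter of lactate and pyruvate, differed by -1.31 (SE 0.47) and Gpr37, an orphan receptor, by -1.12 (SE 0.27). The margin was as small in Slc16a7 as in Carmil2, with rich replicate 1 at 9.34 and poor replicate 4 at 9.43.

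Stress programmes leaned to the poor tumours by small amounts. Of 13 unfolded protein response genes 12 were lower in the rich tumours and 0 were past the fold, with a median of -0.12. In 3 of them ranges were apart with the rich below, against 3.56% of all genes. Their list mean was 0.09, 0.21, 0.30 and -0.01 in the rich and 0.34, 0.37 and 0.31 in the poor tumours. All 4 rich tumours lay below all 3 poor ones, though replicates 3 and 7 were almost level. Of 14 hypoxia and glycolysis genes 13 were lower and 1 was higher, against 45.6% higher over all genes, and the median was -0.19. All 14 overlapped, where 5.42% of all genes had ranges apart with the rich above and 3.56% below. Vegfa, the hypoxia-induced growth factor of blood vessels, read 10.98, 10.63, 10.70 and 11.22 in the rich and 11.21, 11.67 and 11.48 in the poor tumours. Oxidative phosphorylation (-0.02), p53 target (0.00) and MAPK pathway (-0.03) medians lay near that of all genes, each with 0 members past the fold.

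Against the controls, the distance in the higher genes lay mostly on the rich side. Both comparisons share the control tumours, so the values are set side by side. For the 209 genes the median difference from the control mean was 1.28 for the rich and -0.16 for the poor tumours. In 170 of them all 4 rich tumours lay above every control, and in 139 the mean of the poor tumours lay within the control range. The mean of the poor tumours was below the control mean in 153. The 209 genes were picked for rich values above poor ones on these same arrays. High rich and low poor values are thus partly built in, and the shares over all genes were not computed. Dcn illustrates the lower side, with poor tumours at 6.01, 7.36 and 6.84 and controls from 6.97 to 8.44, and Clec4a3 the upper side, with controls from 5.48 to 6.08 and rich tumours from 7.63 to 9.32.

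**Figure D5:**
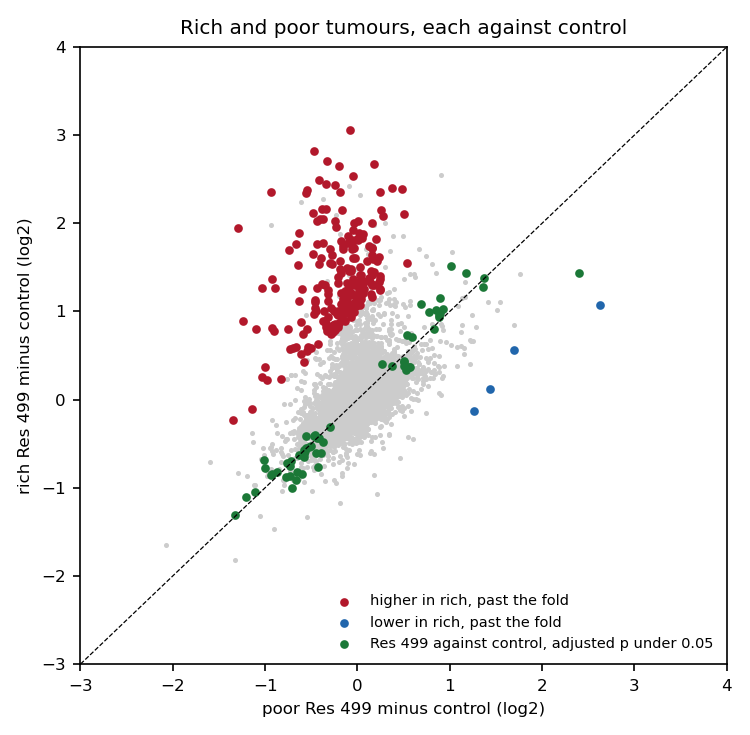
Mean of the rich Res 499 tumours minus the control mean (log2, vertical axis) against the same for the poor tumours (horizontal axis), 1 point per gene, with the line of equality dashed. Genes past the fold and higher in rich are red, lower ones blue and genes called between Res 499 and control by limma green. The green points lie near the line, apart from Phyhipl.

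The labels allow a test of a different contrast, all 7 Res 499 against the 4 control tumours, and its calls were set beside the split. In a limma fit over the 16635 genes 59 (0.355%) passed an adjusted p of 0.05, 24 higher (0.144%) and 35 lower (0.21%). Of these 59 genes 0 were past the fold between rich and poor, against 1.28% of all genes, so this count is near that share. In 9 of the 59 the ranges of rich and poor were apart. Over all genes they were apart with the rich above in 5.42% and below in 3.56%. In 58 of the 59 called genes the difference was under 0.5 in size, where the 5th and 95th percentiles of all genes were -0.23 and 0.36. The median absolute difference of the 59 was 0.093 against 0.086 over all genes. In this fit the distance between rich and poor tumours counts as spread within Res 499. A gene that divides them is thus less likely to be called, and the count of 0 past the fold is partly built in. Of the 209 higher genes 0 passed the adjusted p of 0.05, and of the 4 lower genes 0 did, while 2159 genes had an unadjusted limma p under 0.05.

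Etv5, an ETS factor downstream of MAPK signalling, is an example of the called genes. It read 8.42, 8.31, 8.03 and 8.01 in the rich and 8.37, 7.75 and 8.17 in the poor tumours, all below the controls at 9.05 to 9.46 (limma adjusted p = 0.00445). The rich and poor means differed by 0.09 (SE 0.17). The lysosomal channel gene Mcoln3 differed between rich and poor by 0.10 (SE 0.13), and the interferon-induced Oas1b by 0.08 (SE 0.14). Oas1b was thus unlike Cxcl9 or Ifit1, with rich values of 7.19, 7.28, 7.38 and 6.92, poor values of 7.33, 7.08 and 6.94, and controls from 6.05 to 6.35. Phyhipl was the called gene that came nearest to the fold, at 7.81, 7.03, 7.64 and 6.99 in the rich against 8.60, 7.88 and 8.51 in the poor tumours (-0.97, SE 0.25), and -0.50 when its probe sets were averaged. Carmil2 missed the threshold of the labelled test (1.74, SE 0.47, limma adjusted p = 0.135) and passed it without Res 499 replicate 2 (limma adjusted p = 0.034).

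The control and Res 177 tumours gave values for the same genes. The controls set the zero of the leukocyte content, and the pair compared here was picked on it. Among them, replicate 2 had the highest leukocyte content (0.23) and replicate 4 the lowest (-0.16). Of the 209 genes 182 (87.1%) were higher in the former, against 46.0% of all genes, with a median of 0.39. Since 4 of the 209 are genes of the content itself, the count without them was 178 of 205. On the same design the Res 177 tumour exceeded the control mean in 198 of the 209 (94.7%), against 53.3% of all genes. On the second design 178 of the 200 measured genes (89%) were higher in the Res 177 than in the control tumour, against 58.9% of all genes, and the 5 leukocyte genes were 1.33 higher there. Of the 4 genes lower in the rich tumours, 4 were higher in control replicate 2 than in replicate 4, 3 were higher in Res 177 than the control mean on the first design, and 0 were higher in Res 177 on the second. These pairs hold too few tumours for a test.

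The spread of a tumour's values around the gene medians, as an interquartile range, was 0.167, 0.209, 0.146 and 0.235 in the rich and 0.160, 0.183 and 0.170 in the poor tumours. The rich tumours thus held both the widest and the narrowest values of the 12 arrays. The count of higher genes was 261 without replicate 5 and 207 without replicate 2. Correlations between the 12 arrays ran from 0.977 to 0.993, and no 2 arrays held identical values.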

How the data were processed

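Per the submitters' processing notes the authors ran RMA from the package oligo, and the deposited tables give the outcome on a log2 scale, which was inferred from the range of the values. Tool versions, the genome build and the probe annotation of the authors were not given in the sources used here. RMA corrects background and forces the arrays onto a common distribution, so a difference is relative to the other genes of an array. Arrays carry no read depth, so the number of tumours limits the precision. Groups come from the subline label, and a replicate number follows the sample order and serves only as a name.

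Gene symbols were taken from the platform annotation. On the first design 23521 of 41345 probe sets had 1 symbol and were used, while 1814 with several and 16010 without any were not. The brightest probe set on average stood for each of 22180 genes, and the dimmest 25% (5545 genes) were set aside. Differences of rich and poor means and their SE came from limma 3.58.1 (lmFit, eBayes; R 4.3.3) on the 7 Res 499 tumours, with no p-value. Res 499 against control by label was tested in a limma fit of 3 groups over the 12 tumours with Benjamini-Hochberg adjustment at 0.05, and this fit was tested on simulated data. The single Res 177 tumour is assumed there to vary like the other groups.

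The members of the groups, the 36 gene lists and the rule for named genes were chosen with earlier results of these data known. The rule named the 5 genes of leukocyte content, the 15 largest differences each way past the fold, up to 4 members past the fold from each list, a fixed panel of genes whatever their values, and any gene past both the fold and the labelled test. The largest differences skipped multigene receptor families, predicted genes, small RNAs and segments of antigen receptors. Alternatives covered the filter, the choice of probe set, centring and quantile normalization, the size of the fold, the content limit and genes, the eBayes prior and each tumour left out.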

Additional observations from a re-analysis of the deposited data

Results flagged for a closer look

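Among 232 groups of 4 to 7 values checked, 9 had 1 tumour far from the rest of its group; chance gives about 1 in 20. In Res 499, the mast cell, basophil and eosinophil list stood at 0.558 in rich replicate 3, relative to the control mean, and the adipocyte list at 1.68 in rich replicate 5. Mlana, a melanocyte antigen, was highest in rich replicate 2 at 13.1. In the control tumours, replicate 2 stood above the others for Adgre1 at 7.28, for Ccr2 at 5.76 and for the Fc, Toll-like and C-type lectin receptor list at 0.261. The NK and cytotoxic list was at 0.207 in control replicate 5. Control replicate 3 was low for the checkpoint ligand list, at -0.094, and for Phyhipl, at 5.27.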

How the results depend on the processing

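The division into 4 rich and 3 poor tumours held under every alternative tried, with the gap between the lowest rich and the highest poor content running from 0.787 to 1.16. Counts past the fold moved with the size asked. At 0.5 there were 436 higher, 34 lower and 91 genes of the lists other than the 5 of the content, in place of 209, 4 and 60, and at 1.5 there were 94, 1 and 37. Without replicates 4 and 5, an alternative added after seeing the data, they were 317, 27 and 104. Leaving out 1 Res 499 tumour gave 182 to 279 higher, 4 to 13 lower and 56 to 97 list genes; the lower count was 7, 13 and 12 without replicates 1, 4 and 5. Scaling moved the counts less: 188 and 6 with arrays centred on their median, 198 and 5 with quantile normalization, and 247 and 4 with arrays centred on their melanocyte genes. The labelled test called 6 genes without control replicate 4 and 196 without Res 499 replicate 2, the ends of the range over single tumours left out, with 11 and 22 without control replicates 2 and 3 and 24, 14, 18, 23 and 37 without Res 499 replicates 1, 3, 4, 6 and 7. Of the genes past the fold it called Carmil2 without Res 499 replicate 2 and H1f5, a histone gene, without replicate 6. No called value changed direction. Recomputed differences of the named genes between rich and poor stayed within the spread between tumours in 1259 values and moved beyond it in 7, and list medians did so in 548 and 19. No paired analysis was possible because replicate numbers only follow the order of the deposited samples. Signal over background limits dim genes such as the lymphocyte markers, and 3 poor tumours limit every range.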

Other observations

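The genes past the fold and higher in the rich tumours included members of gene families that the lists cover only in part, chosen here after their values were seen. Of 10 Ms4a genes, membrane proteins of leukocytes, 6 were past the fold, led by Ms4a7 at 2.50 and Ms4a6d at 2.43, and of 4 Slamf receptor genes 3 were (Slamf7, Slamf8 and Slamf9). Of 21 Clec lectin genes 8 were past it (median 0.29), and of 12 Toll-like receptor genes 4 (median 0.37). Over all genes 1.26% were past the fold and higher. Collagen genes were divided, with 6 of 42 past the fold and a median difference of -0.04 over the 42. The 6 were Col1a1, Col3a1, Col12a1, Col1a2, Col14a1 and Col8a1, at 1.30 to 1.90. Further matrix genes with narrow ranges were Tnc, the matrix glycoprotein tenascin C, at 9.25, 8.55, 9.17 and 8.97 in the rich and 6.69, 6.65 and 6.22 in the poor tumours, and Lox, a collagen crosslinking enzyme, at 2.52 (SE 0.29). Of the 209 genes 145 stood in none of the 36 lists.

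Some large differences rested on few tumours. Hp, an acute-phase haemoglobin scavenger, read 10.73 in rich replicate 5 and 6.82 to 7.38 in the other rich tumours, and Car3, a carbonic anhydrase abundant in fat, read 10.53 against 6.63 to 7.69; the adipocyte list was at 1.68 in the same tumour. Xist, the RNA of the inactive X chromosome in female cells, was past the fold at 1.51 (SE 0.26), with 9.25, 10.06, 9.39 and 8.98 in the rich, 7.78, 8.34 and 7.61 in the poor and 7.86 to 9.02 in the control tumours. Genes of the rich tumours were not all high in the Res 177 tumour. In 111 of 203 named higher genes it lay below every rich tumour, and 11 of the 209 were no higher in it than the control mean, Retnla having the largest difference among them. Lyz1 was 7.72 on average in the rich tumours and 5.45 in Res 177, with controls up to 5.64, but its probes can read the near-identical Lyz2.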
